A study of Mus musculus with 15 samples.

Results

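A set of 10 genes of the canonical Wnt pathway was followed across the peak lists of mouse embryonic stem cells (ESCs) of the 129SV line J1 and of expanded potential stem cells (EPSCs) kept in either of 2 published media, named D-EPSCs and L-EPSCs. They were named by hand as 8 pathway genes and 2 tankyrases (Axin1, Axin2, Lef1, Tcf7, Sp5, T, Cdx1, Ctnnb1, Tnks and Tnks2), which makes 10 of the 22350 protein-coding genes in the GENCODE M1 annotation of mm9. Each gene span was widened by 20 kb on both sides, and the bases of that window under a peak were counted in each of 6 lists, 1 for every combination of 3 cell states with 2 histone marks, H3K4me1 (found at enhancers and beside promoters) and H3K27ac (found at active enhancers and promoters). ChIP-seq had been run on 2 samples of each state and mark and on 1 input of each state, 15 samples in all, but with 1 peak list per state and mark no difference given here has a replicate check, and no p-value is given.

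The ESC medium held 15% FBS, 1000 units/mL LIF, 3 µM CHIR99021 and 1 µM PD0325901, an inhibitor of the kinase MEK. The D-EPSC medium held 5% KSR (a serum replacement) with the same doses of LIF and CHIR99021, and 2 µM each of dimethindene maleate and minocycline hydrochloride. The L-EPSC medium held 20% KSR and again LIF, CHIR99021 and PD0325901 as for ESCs, with 5 µM XAV939, 0.3 µM A-419259 (which inhibits Src-family kinases), 4 µM JNK inhibitor VIII and 10 µM SB203580 (a p38 inhibitor). The 3 states therefore shared CHIR99021, and XAV939 was in the L-EPSC medium alone. Both kinds of EPSC had been converted from the ESCs, so all lists describe 1 parental line.

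In the canonical Wnt pathway a destruction complex built on the scaffold Axin, with GSK3 and APC, marks β-catenin for degradation. When the complex is held off, β-catenin accumulates, enters the nucleus and binds the TCF/LEF factors on DNA, and target genes such as Axin2, Sp5, T and Cdx1 are transcribed. CHIR99021 inhibits GSK3 and so stabilises β-catenin, whereas XAV939 inhibits the tankyrases, which mark Axin for degradation, and so stabilises Axin. The media thus act on the pathway at separate steps, and the states also differ in agents that act elsewhere, so a difference between lists cannot be tied to one agent.

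The lists differed in length, and this sets what a window can show. The H3K27ac lists covered 107.4 Mb in the ESC list, 44.4 Mb in the D-EPSC list and 34.3 Mb in the L-EPSC list, and the H3K4me1 lists covered 221.1, 187.5 and 173.1 Mb. Read depth is unknown from peak positions, and longer lists can come from deeper libraries. The start sites of Pou5f1, Sox2, Nanog and Zfp42, which mark pluripotent cells, had an H3K27ac peak within 1 kb in all 3 states (4 of 4), and those of the fibroblast genes Col1a1, Col1a2, Thy1 and Twist1 had none (0 of 4 in each state). Comparisons of D-EPSCs and of L-EPSCs with ESCs share the ESC list.

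The sequences below belong to the regions that the results turn on, and all are read from mm9 in the direction of the gene, 5′ to 3′. Capitals mark a match to the TCF/LEF core motif, searched as CTTTGAA and CTTTGAT on both strands (TTCAAAG and ATCAAAG on the other). The first 3 are the 250 bases before the start sites of Sp5, T and Tcf7, chosen because each holds 1 match. The next pair are the 300 bases at the centre of a stretch acetylated in D-EPSCs and not in the other states at Lef1 and of one acetylated in ESCs and not in EPSCs at Axin2, neither of which holds a match. The last pair, from Ctnnb1 and Tnks, are centres of regions with H3K27ac in ESCs and either less or none in EPSCs, and each holds 1 match. The centres of the corresponding regions at Axin1, Tcf7 and Tnks2 are not printed and hold 0 matches. By the annotation the Lef1 and Ctnnb1 regions lie upstream of their genes and outside any coding gene, the Tnks region lies in an intron, and the Axin2 region overlaps an exon.
Sp5 promoter, chr2:70312730-70312979, plus strand: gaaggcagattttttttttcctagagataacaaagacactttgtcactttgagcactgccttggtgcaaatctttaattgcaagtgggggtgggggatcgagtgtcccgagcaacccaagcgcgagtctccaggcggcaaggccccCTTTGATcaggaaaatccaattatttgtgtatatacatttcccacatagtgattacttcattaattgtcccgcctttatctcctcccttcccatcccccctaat
T promoter, chr17:8627038-8627287, plus strand: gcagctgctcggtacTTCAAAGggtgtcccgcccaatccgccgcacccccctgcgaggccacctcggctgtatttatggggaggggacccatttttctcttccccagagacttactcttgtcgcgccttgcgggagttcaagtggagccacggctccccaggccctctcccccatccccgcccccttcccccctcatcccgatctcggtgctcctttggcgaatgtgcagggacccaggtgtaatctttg
Tcf7 promoter, chr11:52096682-52096931, minus strand: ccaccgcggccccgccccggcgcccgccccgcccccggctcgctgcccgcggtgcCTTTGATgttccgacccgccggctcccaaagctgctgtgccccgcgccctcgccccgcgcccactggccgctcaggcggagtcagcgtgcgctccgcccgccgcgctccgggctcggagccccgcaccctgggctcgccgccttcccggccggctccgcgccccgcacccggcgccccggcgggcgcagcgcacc
Lef1 D-EPSC region, chr3:130805204-130805503, plus strand: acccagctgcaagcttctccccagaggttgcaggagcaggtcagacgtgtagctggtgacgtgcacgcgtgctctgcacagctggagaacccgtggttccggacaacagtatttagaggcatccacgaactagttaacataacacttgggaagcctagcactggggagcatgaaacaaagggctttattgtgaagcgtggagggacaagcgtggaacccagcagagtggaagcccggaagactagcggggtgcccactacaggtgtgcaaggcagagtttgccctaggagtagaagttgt
Axin2 ESC region, chr11:108793066-108793365, plus strand: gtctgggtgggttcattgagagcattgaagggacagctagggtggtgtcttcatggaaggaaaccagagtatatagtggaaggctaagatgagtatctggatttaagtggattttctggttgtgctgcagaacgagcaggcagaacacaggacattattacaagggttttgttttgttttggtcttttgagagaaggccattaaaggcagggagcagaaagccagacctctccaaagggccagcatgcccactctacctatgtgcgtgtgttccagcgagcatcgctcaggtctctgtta
Ctnnb1 region, chr9:120836575-120836874, plus strand: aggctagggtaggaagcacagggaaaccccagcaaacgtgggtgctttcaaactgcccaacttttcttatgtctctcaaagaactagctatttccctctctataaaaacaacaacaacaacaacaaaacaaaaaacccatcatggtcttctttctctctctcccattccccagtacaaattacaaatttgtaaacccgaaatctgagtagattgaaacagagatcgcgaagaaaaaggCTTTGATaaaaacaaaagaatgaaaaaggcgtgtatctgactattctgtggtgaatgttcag
Tnks ESC region, chr8:36017305-36017604, minus strand: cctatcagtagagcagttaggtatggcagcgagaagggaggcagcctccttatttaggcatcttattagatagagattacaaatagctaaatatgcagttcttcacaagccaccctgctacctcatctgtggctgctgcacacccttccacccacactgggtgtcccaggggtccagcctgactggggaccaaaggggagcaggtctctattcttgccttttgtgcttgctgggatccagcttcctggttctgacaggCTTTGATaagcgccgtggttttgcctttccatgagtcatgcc

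Over the 10 windows together, H3K27ac covered 83.1 kb in the ESC list, 34.5 kb in the D-EPSC list and 20.1 kb in the L-EPSC list. H3K4me1 covered 288.2, 245.0 and 164.0 kb. Acetylation was thus lower in both EPSC lists at most of these genes, but this was the rule for the genome as a whole, and Lef1 went the other way, in D-EPSCs. Axin1 and Cdx1, with 0 H3K27ac bases in both EPSC lists, lay in the lower tail of the genome's H3K27ac ratios. Their place there depends on the 500 bp added to both values of a ratio. In H3K4me1 the genes that stood away from the genome were Lef1, Axin2 and Cdx1. The bar chart of covered bases gives every value.

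**Figure D1:**
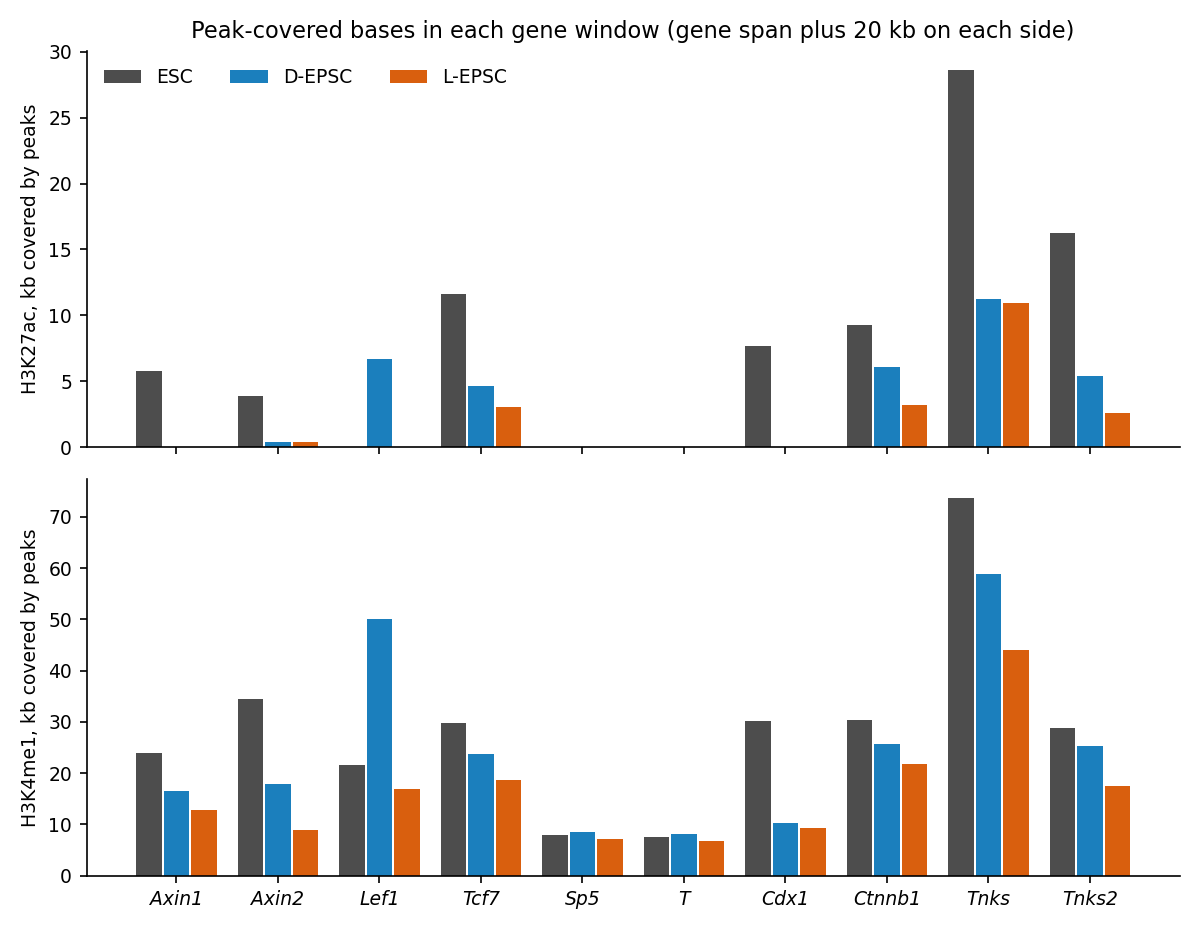
Bars give the kb covered by H3K27ac peaks (top) and H3K4me1 peaks (bottom) in each gene window for ESCs (grey), D-EPSCs (blue) and L-EPSCs (orange), 1 list each. Lef1 has H3K27ac in D-EPSCs alone (6.72 kb), Sp5 and T have none in any list, and the H3K4me1 bar of Axin2 steps down from 34.5 kb in ESCs to 17.9 kb (D-EPSCs) and 8.95 kb (L-EPSCs).

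A window counted as different when its covered bases differed at least 2-fold between a pair of lists, and only windows with 1 kb or more in one of them were compared. For H3K27ac, 8 of the 10 genes could be compared between D-EPSCs and ESCs, and 6 of them were lower in D-EPSCs (Axin1, Axin2, Tcf7, Cdx1, Tnks and Tnks2), where 61.6% of 13627 windows were. Lef1 (1 gene) was higher, against 4.66% of windows. Between L-EPSCs and ESCs 7 of 7 genes were lower, against 79.6% of 13231 windows, and 0 were higher, against 1.79%. A lower H3K27ac cover was therefore near the background in both comparisons. When all lists of the mark were trimmed to equal numbers of peaks, keeping the widest, 5 genes were lower in D-EPSCs than in ESCs (Tcf7 was lost) and 6 in L-EPSCs (Tnks was lost). The share of all windows that were lower was not counted for trimmed lists, so these counts have no background. Trimming to equal covered bases instead left 3725 ESC peaks of at least 5131 bp and 0 genes lower, but it also left no ESC base at Axin1, Axin2, Cdx1, Ctnnb1 or Tnks2, so these 5 could not be called lower.

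H3K4me1 cover differed at fewer of the genes. All 10 genes had at least 1 kb in every list, and the D-EPSC list was lower than the ESC list at 1 gene, Cdx1 (background 4.52% of 18111 windows), and higher at 1, Lef1 (8.53%). The L-EPSC list was lower than the ESC list at 2, Axin2 and Cdx1 (9.12% of 18292 windows), and higher at 0 (9.27%). Between the EPSC lists, L-EPSC cover was lower at Axin2 and Lef1 (2.98% of 18363 windows) and higher at 0 (3.17%). For H3K27ac between the EPSC lists, 5 genes could be compared, of which Lef1 and Tnks2 were lower in L-EPSCs (33.0% of 11271 windows) and 0 were higher (5.49%).

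Ratios are also given as log2 with 500 bp added to both values, which shrinks the ratios of sparsely covered windows. Over all 10 genes, those without H3K27ac included, the median H3K27ac ratio was -1.28 for D-EPSCs over ESCs and -1.59 for L-EPSCs over ESCs. All windows of the genome had medians of -0.51 and -0.89. Among the genes with 1 kb or more in one list, the medians were -1.41 (8 genes) and -2.33 (7 genes). The compared windows of the genome had -1.16 and -1.69. The corresponding H3K4me1 medians were -0.28 and -0.68 for the 10 genes and -0.11 and -0.29 for the genome. For L-EPSCs over D-EPSCs the 10 genes had a median H3K4me1 ratio of -0.35, beside -0.17 for the genome. In the L-EPSC list all 10 genes had less H3K4me1 cover than in both other lists, by amounts from 1.11-fold at Sp5 to 3.86-fold at Axin2 against ESCs. Lower L-EPSC cover was common in the genome too, as both genome medians lay below 0. The genome's 75th percentiles were 0.12 over ESCs and 0.06 over D-EPSCs, and the share of windows with any lower cover was not counted. Sp5 and T lay above the genome's median against ESCs, with 61.5% and 61.1% of windows lower.

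**Figure D2:**
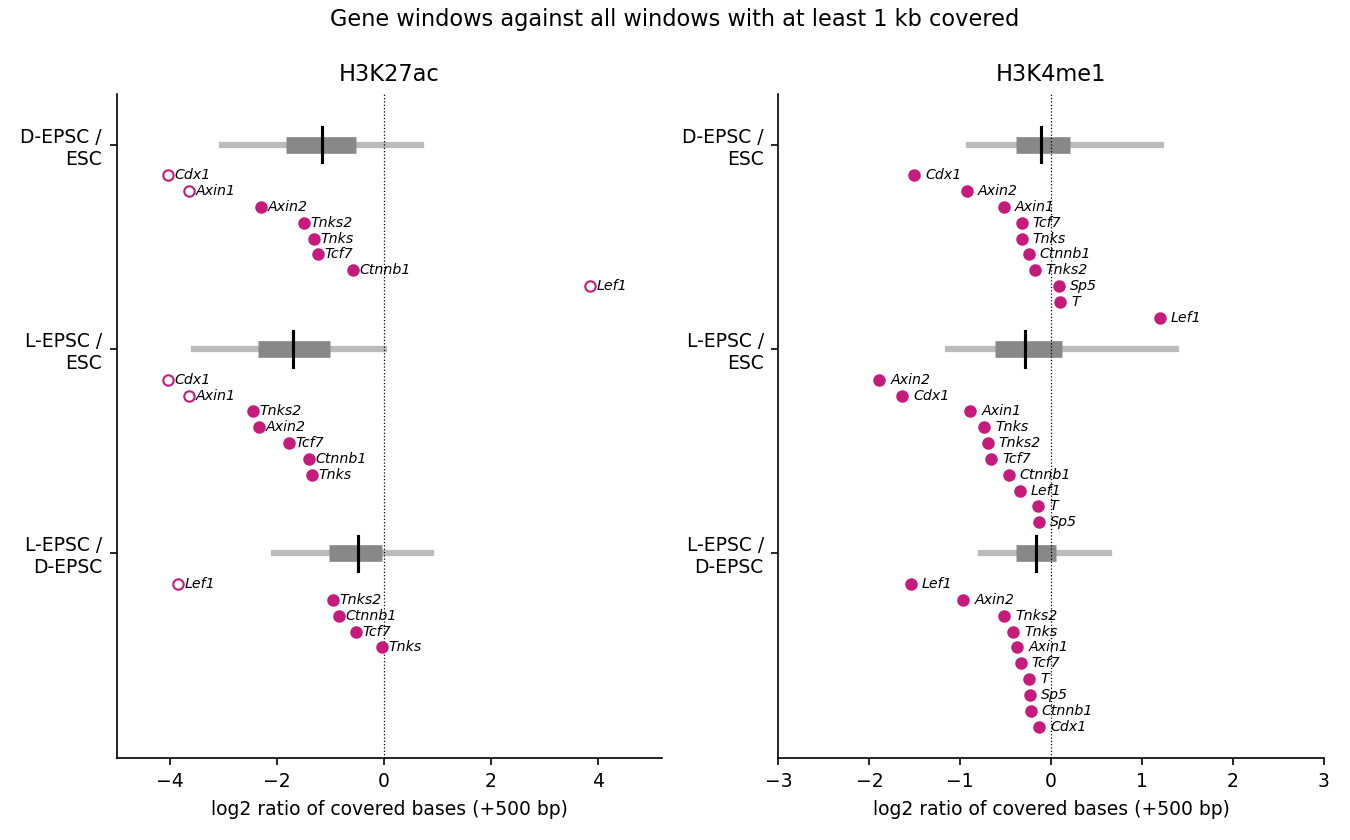
Points give the log2 ratio of covered bases (500 bp added) of each gene with at least 1 kb in one of the lists compared, and open points mark a ratio in which one list has 0 bases. Grey bars span the 5th to 95th and the 25th to 75th percentiles of all such windows, with their median as a black line. In H3K4me1, Cdx1 and Axin2 lie past the lower end of the bars in both comparisons with ESCs, and Lef1 and Axin2 do so for L-EPSCs over D-EPSCs, and in H3K27ac the open points of Axin1 and Cdx1 lie past the lower end in both comparisons with ESCs, and Lef1 past the upper end for D-EPSCs over ESCs, whereas Axin2, Tcf7, Ctnnb1, Tnks and Tnks2 lie within the wider bars of those comparisons.

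Axin2 encodes an Axin paralogue that is itself induced by β-catenin and feeds back on the pathway, and its gene lies at chr11:108781663-108812097 (plus strand) with no other coding gene in the window. H3K4me1 covered 34.5 kb of the Axin2 window in the ESC list, 17.9 kb in the D-EPSC list and 8.95 kb in the L-EPSC list. L-EPSC cover was 3.86-fold below ESC cover (log2 -1.89), and 0.415% of all compared windows had a lower ratio. The D-EPSC value lay between the others, 1.92-fold below ESCs (log2 -0.92), with 4.50% of windows lower. The step from D-EPSCs to L-EPSCs was 2.01-fold (log2 -0.97), with 2.29% of windows lower. When peaks were counted in place of bases, Axin2 had 9 H3K4me1 peaks in both the ESC and D-EPSC lists but 7 in the L-EPSC list, and the lower cover lay in narrower peaks more than in fewer.

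The cover at Axin2 was highest in ESCs in every merged region of the window but one (the peak map of Axin2 and Lef1), with positions given in bp from the first base of the gene, negative before it. Of the H3K4me1 region from 1382 to 13468, formed by merging the 3 lists, the ESC list covered 10602 bp, the D-EPSC list 5589 bp and the L-EPSC list 1779 bp. An upstream region from -14060 to -6518 held 7543, 4774 and 3495 bp. Over the end of the gene, from 27037 to 30319, ESCs had 3283 bp, D-EPSCs 1082 bp and L-EPSCs none. Just before the start, from -3338 to -137, D-EPSCs had as much as ESCs (3127 and 3076 bp) and L-EPSCs 1529 bp, and in the region farthest downstream, from 40616 to 42895, the ESC list had 2280 bp, the D-EPSC list 387 bp and the L-EPSC list 430 bp.

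Acetylation at Axin2 lay along the gene in ESCs and at its start alone in both EPSC lists. In ESCs 5 peaks lay at 86 to 1496, 8215 to 8831, 11184 to 11921, 14626 to 15248 and 28483 to 28977 and covered 3.88 kb. In D-EPSCs 1 peak of 391 bp lay at 83 to 473, and in L-EPSCs 1 peak of 370 bp at 67 to 436. The ESC region at 11184 to 11921, whose centre is printed above, was fully under H3K4me1 in ESCs (738 bp) and not at all in either EPSC list (0 bp each). H3K27ac cover was 9.93-fold lower in D-EPSCs and 10.5-fold lower in L-EPSCs than in ESCs, and 13.5% and 25.7% of compared windows had lower ratios. With equal numbers of peaks the ESC list kept 1.41 kb, the log2 ratios went from -2.30 and -2.33 to -1.10 and -1.14, and 41.1% and 57.7% of windows were lower.

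Axin1, the scaffold of the destruction complex (chr17:26275631-26332756, plus strand), had 6 H3K27ac peaks in ESCs, which covered 5.77 kb, and none in D-EPSCs or L-EPSCs. Of the compared windows, 1.78% had a lower H3K27ac ratio than Axin1 for D-EPSCs over ESCs and 4.35% for L-EPSCs over ESCs. These ranks depend on the 500 bp added. With equal numbers of peaks the ESC list kept 1.37 kb at Axin1, and its rank was not computed. With 50 kb on each side H3K27ac covered 32.1, 5.30 and 3.83 kb in ESCs, D-EPSCs and L-EPSCs. Of the 6 ESC peaks, 1 lay just before the start, at -1078 to -380, 4 lay in the gene or over its end, and 1 lay over an exon of the neighbour Tmem8. H3K4me1 was present in all states, at 24.0 kb in ESCs, 16.6 kb in D-EPSCs, then 12.7 kb in L-EPSCs. The window holds 6 other coding genes (Tmem8, Mrpl28, Pdia2, Arhgdig, Rgs11 and Itfg3), whose marks cannot be told apart from those of Axin1 here. The H3K4me1 ratio of L-EPSCs over ESCs at Axin1 (log2 -0.89) had 11.2% of compared windows below it.

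Tnks (chr8:35892233-36028744, minus strand) and Tnks2 (chr19:36908722-36967967, plus strand) encode the tankyrases, the poly-ADP-ribosylating enzymes that XAV939 inhibits. Tnks held the most H3K27ac of the 10 windows, with 28.6 kb in the ESC list, 11.2 kb in the D-EPSC list and 11.0 kb in the L-EPSC list. The EPSC lists were close to each other (1.02-fold), whereas the ESC value was 2.56-fold above D-EPSCs and 2.62-fold above L-EPSCs. Tnks2 held 16.2 kb in the ESC list, 5.42 kb in the D-EPSC list and 2.57 kb in the L-EPSC list, a step of 2.11-fold from D-EPSCs to L-EPSCs. Neither tankyrase lay in a tail of the genome's ratios. Of the compared windows, 43.7% and 36.6% were lower than Tnks and Tnks2 for D-EPSCs over ESCs, and 63.1% and 22.6% for L-EPSCs over ESCs.

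Within Tnks, an intronic ESC domain of 9061 bp, from 36846 to 45906, was the widest H3K27ac peak of ESCs that lay wholly within any of the 10 windows. D-EPSCs had 3531 bp of it in separate peaks, the largest 2077 bp wide (42692 to 44768), and L-EPSCs had 3534 bp, the largest 2347 bp wide (42686 to 45032). The same domain was under H3K4me1 throughout in ESCs (9061 bp) and mostly so in D-EPSCs (7258 bp) and L-EPSCs (7450 bp). The 1619 bp ESC region of Tnks from 10480 to 12098, whose centre is printed above, carried no H3K27ac in either EPSC list, and all 1619 bp of it were under H3K4me1 in all 3 states. Over the window H3K4me1 covered 73.6, 58.8 and 44.0 kb in ESCs, D-EPSCs and L-EPSCs. The window also holds the neighbour Dusp4, downstream of Tnks. There the 20 kb past the gene held 4.37, 8.13 and 4.88 kb, most in D-EPSCs, and the Tnks gene itself held 65.3, 46.6 and 35.0 kb.

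At Tnks2 a promoter peak was present in every state and crossed the first base, from -2730 to 1598 in the ESC list, from -1328 to 759 in the D-EPSC list and from -1311 to 600 in the L-EPSC list. It was the one start site of the 10 whose first base was under H3K27ac, and this held in each of the 3 lists. Over all genes the share was 21.5% in the ESC list, 24.4% in the D-EPSC list and 17.4% in the L-EPSC list. An upstream ESC peak of 4586 bp (-19055 to -14470) had 357 bp in D-EPSCs and none in L-EPSCs. H3K4me1 covered 28.7 kb of the window in the ESC list, 25.3 kb in the D-EPSC list and 17.5 kb in the L-EPSC list.

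Ctnnb1 encodes β-catenin (chr9:120838334-120869625, plus strand). H3K27ac covered 9.28 kb in ESCs, 6.08 kb in D-EPSCs, then 3.20 kb in L-EPSCs, and its D-EPSC value, 1.53-fold below ESCs, was the smallest reduction among the genes acetylated in ESCs. A cluster upstream, from -11686 to -8502, held 3036, 2563 and 1196 bp. The region from -2469 to -749, whose centre is printed above with its match, held 1721 bp in the ESC list, 454 bp in the D-EPSC list and none in L-EPSCs. A region inside the gene, from 3009 to 5744, held similar totals of 1330, 1335 and 1125 bp, but largely over different bases. In ESCs the peaks lay at 3009 to 3962 and 5028 to 5403. The D-EPSC peak lay at 4243 to 5577, and the L-EPSC peaks at 3822 to 4384 and 5183 to 5744. H3K4me1 covered 30.4, 25.6 and 21.9 kb, and the 2484 bp acetylated region farthest downstream, from 32046 to 34529, lay over the neighbour Ulk4.

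Lef1, a DNA-binding partner of β-catenin (chr3:130813389-130927274, plus strand), was the exception among the 10. It had no H3K27ac peak in ESCs or L-EPSCs and 4 peaks covering 6.72 kb in D-EPSCs. Of these, 3 lay upstream, at -10824 to -9923, -9884 to -6187 and -4128 to -3075, and 1 in an intron, at 71526 to 72591. No fold is given against the lists at 0. Its log2 ratio with 500 bp added, which depends on that number, exceeded those of 99.97% of compared windows for D-EPSCs over ESCs, and for L-EPSCs over D-EPSCs 0.0444% of windows were lower.

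H3K4me1 at Lef1 was 21.6 kb in the ESC list, 50.1 kb in the D-EPSC list and 16.9 kb in the L-EPSC list. The D-EPSC cover was 2.32-fold above ESCs (log2 1.20), with 94.9% of compared windows below it, and 2.97-fold above L-EPSCs, with 0.370% of windows lower for L-EPSCs over D-EPSCs. L-EPSCs and ESCs were close (log2 -0.35, with 45.1% of windows below), so the high value belonged to D-EPSCs. Within the gene itself, with no widening, the values were 8.26 kb in the ESC list, 32.8 kb in the D-EPSC list and 8.48 kb in the L-EPSC list. The widest intronic region, from 28648 to 36046, held 7399 bp in D-EPSCs, 2786 bp in ESCs and 1730 bp in L-EPSCs, and 6 H3K4me1 regions of the window were found in D-EPSCs alone, 1 in ESCs alone and 2 in L-EPSCs alone.

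The acetylated stretch of Lef1 from -9884 to -6187 was not bare in the other states. Of its 3698 bp, ESCs had H3K4me1 on 3523 bp, D-EPSCs on 3698 bp and L-EPSCs on 2593 bp, whereas the intronic stretch at 71526 to 72591 had H3K4me1 in D-EPSCs (943 bp) and 0 bp in both other lists. When the window was widened to 50 kb on each side, H3K27ac covered 7.92 kb in ESCs, 11.5 kb in D-EPSCs, then 2.49 kb in L-EPSCs, and the 2-fold call for D-EPSCs over ESCs was lost for both marks. Within 20 kb the window overlaps the neighbour Hadh, which carried none of the 4 H3K27ac peaks.

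Tcf7 encodes TCF1, another DNA-binding partner of β-catenin (chr11:52065873-52096681, minus strand). H3K27ac covered 11.6 kb in the ESC list, 4.64 kb in the D-EPSC list and 3.06 kb in the L-EPSC list, 2.51-fold and 3.80-fold below ESCs. A region inside the gene, from 20082 to 22955, kept most of its cover, with 2702, 2670 and 1999 bp, whereas 10 of the 17 acetylated regions of the window were found in ESCs alone. At the start of the gene 1 small peak, from 209 to 417, was present in D-EPSCs alone. H3K4me1 covered 29.8, 23.7 and 18.7 kb. The window reaches into the neighbour Skp1a, and an ESC peak of 10284 bp over Skp1a begins at 50687 and runs past the window edge.

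The remaining 3 genes are transcription factors that β-catenin can switch on: Sp5, T (Brachyury, a regulator of mesoderm) and Cdx1 (a caudal-type homeobox factor). Sp5 (chr2:70312980-70315786, plus strand) and T (chr17:8627288-8635361, plus strand) had no H3K27ac peak in any list, and no other coding gene lies in their windows. Their H3K4me1 cover was alike across states, at 7.98, 8.53 and 7.21 kb for Sp5 and at 7.53, 8.09 and 6.77 kb for T in ESCs, D-EPSCs and L-EPSCs. The largest step between any pair of lists was 1.20-fold, and the states differed in where the bases lay.

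Around Sp5, ESCs had separate H3K4me1 peaks, one of them over the start, whereas each EPSC list had 1 peak across the start and nearly all of the gene, from -3743 to 3140 (D-EPSCs) or from -3570 to 2724 (L-EPSCs). The gene body of 2.81 kb was covered over 1.40 kb in the ESC list, whole in the D-EPSC list and over 2.73 kb in the L-EPSC list. At T the first base was free of H3K4me1 in ESCs, with peaks at -2304 to -856 and 303 to 882 on either side. In D-EPSCs 1 peak ran across it from -2258 to 620, and in L-EPSCs 1 peak ran from -2060 to 733. The TTCAAAG match printed above for T and the CTTTGAT match for Sp5 lie within the 250 bases before the start, a stretch that these EPSC peaks cover. At Sp5 an ESC peak from -2319 to 951 covers that stretch too, and at T no ESC peak does.

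**Figure D3:**
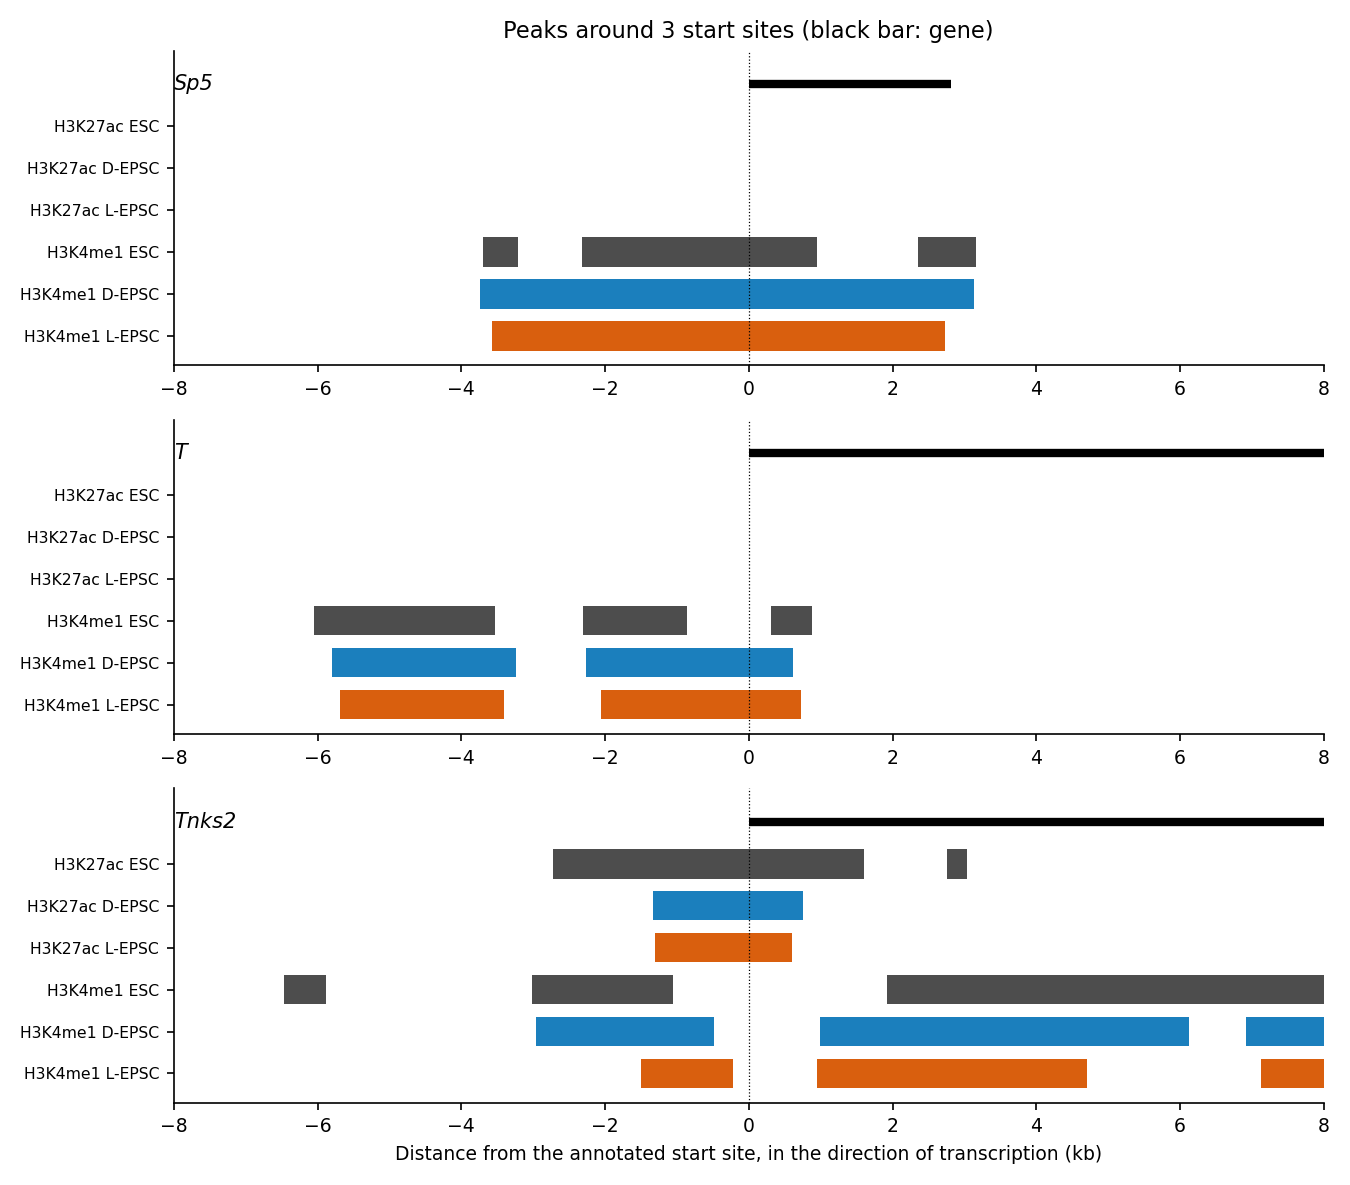
Each box is 1 peak within 8 kb of the first base of Sp5, T and Tnks2, with distances in kb, a row for each mark and state and a black bar for the gene. H3K4me1 runs unbroken across the T start in D-EPSCs and L-EPSCs and is interrupted there in ESCs, and the H3K27ac rows are empty for Sp5 and T but filled at the Tnks2 start in all 3 states.

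Cdx1 is the gene of the 10 on chromosome 18 (61178516 to 61195853, minus strand), and no sequence is shown for it. It had 8 H3K27ac peaks covering 7.66 kb in ESCs and none in D-EPSCs or L-EPSCs, and 0.961% and 2.43% of compared windows had lower H3K27ac ratios than Cdx1 for D-EPSCs and L-EPSCs over ESCs. These ranks depend on the 500 bp added. With equal numbers of peaks the ESC list kept 5.64 kb of H3K27ac at Cdx1, and its rank was not computed. H3K4me1 covered 30.1 kb in the ESC list, 10.3 kb in the D-EPSC list and 9.34 kb in the L-EPSC list, which was 2.93-fold (log2 -1.50) and 3.22-fold (log2 -1.64) below ESCs. Of the compared windows, 1.03% were lower for D-EPSCs over ESCs and 0.940% for L-EPSCs over ESCs. Unlike Lef1 and Axin2, Cdx1 did not separate the EPSC lists (log2 -0.13 for L-EPSCs over D-EPSCs). The window is shared with Slc6a7 and Pdgfrb. Inside the Cdx1 gene alone H3K27ac covered 2.81 kb in ESCs, and H3K4me1 covered 7.33, 3.40 and 2.48 kb in ESCs, D-EPSCs and L-EPSCs.

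At the start sites (1 kb to each side of the first base) the acetylated genes among the 10 were fewer in the EPSC lists than in the ESC list. In ESCs 6 of 10 had an H3K27ac peak (Axin1, Axin2, Cdx1, Ctnnb1, Tnks and Tnks2), in D-EPSCs 4 (Axin2, Tcf7, Tnks and Tnks2) and in L-EPSCs 3 (Axin2, Tnks and Tnks2). Over all 22350 genes the shares were 35.7%, 35.3% and 28.8%. Axin2, Tnks and Tnks2 thus had a peak there in every state. Counting any annotated transcript start gave 6, 5 and 4 genes, beside 39.2%, 37.9% and 31.4% of all genes. By that measure Ctnnb1, which has 13 such starts, had a peak in every state. The members' share was thus above that of the genome in ESCs and near it in L-EPSCs, on counts of 10 genes. H3K4me1 peaks lay there at 9, 10 and 9 of the genes, against 57.5%, 67.1% and 68.0% of all genes.

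H3K4me1 over the first base itself was found at Sp5, Cdx1 and Ctnnb1 in ESCs, at Sp5, T and Cdx1 in D-EPSCs and at Lef1, Sp5, T and Cdx1 in L-EPSCs. Over all genes 11.4% had this in the ESC list, 26.2% in the D-EPSC list and 31.8% in the L-EPSC list. T had it in both EPSC lists and not in ESCs, Lef1 had it in L-EPSCs alone, where a peak ran from -1069 to 2977, and Ctnnb1 had it in ESCs alone.

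The bases acetylated in ESCs were followed next. Of the 83.1 kb in the 10 windows, 26.6% were also acetylated in D-EPSCs and 19.7% in L-EPSCs, and over the whole ESC list 32.4% and 26.7% were. The same 83.1 kb were under H3K4me1 at 81.0% in ESCs, 67.2% in D-EPSCs, then 58.4% in L-EPSCs, beside 79.0%, 67.7% and 65.0% for the whole list. Over the 10 windows together, most of these bases were under H3K4me1 in both EPSC lists, as in the genome.

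Individual genes spread widely around those shares. At Axin2 H3K4me1 lay over 63.7% of the ESC-acetylated bases in ESCs, over 30.0% in D-EPSCs and over 4.20% in L-EPSCs. At Tnks the shares were 93.9%, 84.2% and 76.6%, and at Ctnnb1 77.6%, 76.7% and 67.6%. At Cdx1, where no base stayed acetylated, they were 91.9%, 46.5% and 48.3%. Axin2 thus had the lowest share of the 7 genes in L-EPSCs, with Axin1 next at 21.3%.

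**Figure D4:**
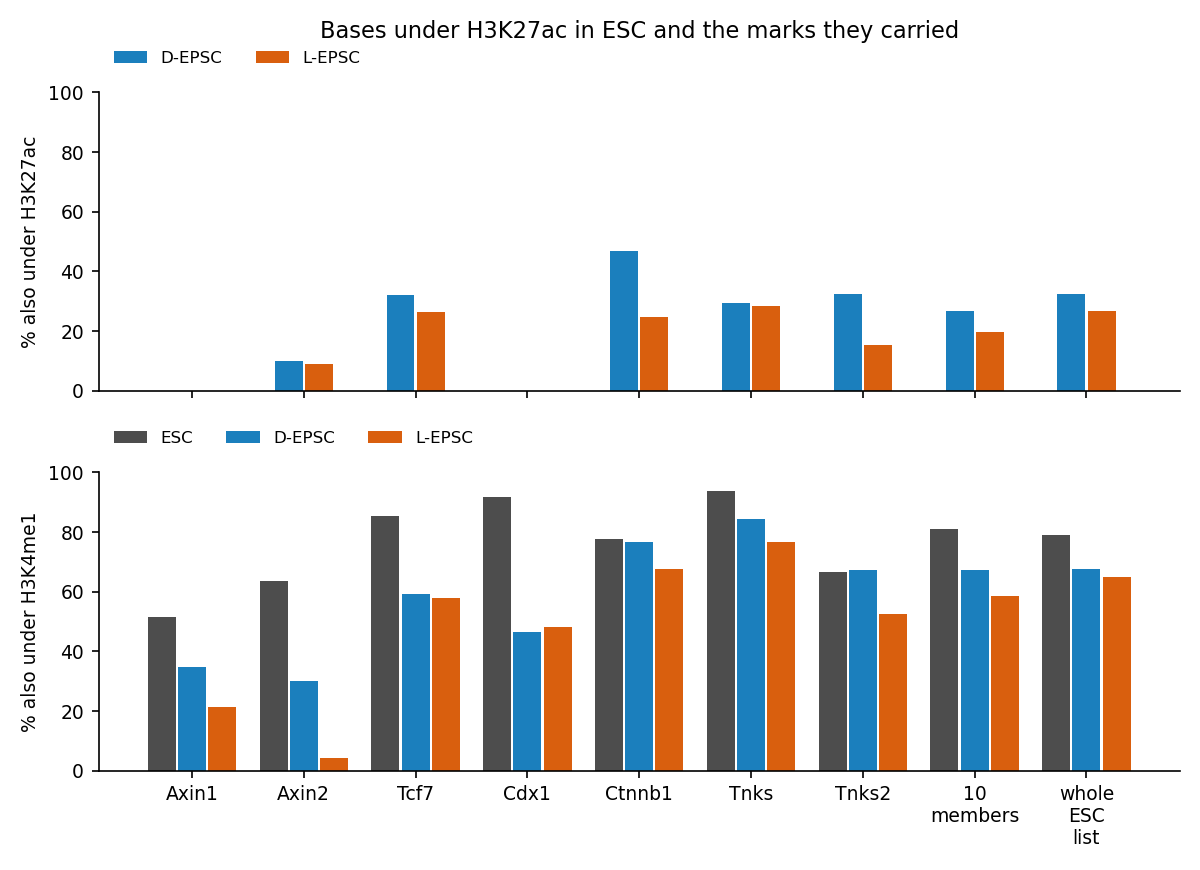
Bars give the percent of the bases under H3K27ac in ESCs that were also under H3K27ac in D-EPSCs and L-EPSCs (top) and under H3K4me1 in ESCs, D-EPSCs and L-EPSCs (bottom), for the 7 genes with such bases, the 10 genes together and the whole ESC list. Axin1 and Cdx1 stand at 0 in the top panel, and the L-EPSC bar of Axin2 (4.20%) is the shortest of the bottom panel.

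In the lists as deposited, the TCF/LEF core motif was found at similar shares of peaks in these windows and elsewhere, with small numbers and no test. With equal numbers of peaks the ESC H3K27ac share in the windows was higher, and the share of all peaks was not counted there. Of the 73 H3K27ac peaks of ESCs in the 10 windows, 9 held a match in the 300 bases at their centre (12.3%, beside 11.0% of all 64342 peaks). In D-EPSCs 3 of 35 peaks did (8.57%, beside 9.68%), and in L-EPSCs 2 of 22 (9.09%, beside 8.93%). For H3K4me1 the shares were 15.7%, 13.7% and 16.1% of the peaks in the windows of ESCs, D-EPSCs and L-EPSCs, and 12.2%, 11.6% and 11.2% of all peaks. Of the 9 ESC matches, 5 were in Tnks, and none of the 4 acetylated peaks of Lef1 in D-EPSCs held one. In the promoters (250 bases before to 50 after the first base), Tcf7, Sp5 and T held 1 match each and Cdx1 held 2, so 4 of 10 had one, beside 8.0% of all 22350 promoters.

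The wider pathway was given by 7 lists of 101 Wnt genes, of which 100 were found and 90 are not among the 10. For H3K27ac, 48 of the 58 that could be compared were lower in D-EPSCs than in ESCs and 2 were higher, the receptor Fzd3 (0, 1.85 and 0 kb in ESCs, D-EPSCs and L-EPSCs) and Porcn, which acylates Wnt ligands (1.04, 6.10 and 0.825 kb). Over all windows 61.6% were lower and 4.66% higher. In L-EPSCs 53 of 57 were lower and 0 higher, beside 79.6% and 1.79% of all windows. That acetylation covered the most bases in D-EPSCs at Lef1, Fzd3 and Porcn follows from their being called higher in D-EPSCs and not in L-EPSCs. For H3K4me1, 5 were lower and 13 higher of 89 in D-EPSCs (4.52% and 8.53% of all windows), and 8 were lower and 13 higher of 90 in L-EPSCs (9.12% and 9.27%). Between the EPSC lists, H3K27ac was lower in L-EPSCs at 11 of 44 and higher at 0 (33.0% and 5.49% of all windows), and H3K4me1 was lower at 1 of 90 and higher at 1 (2.98% and 3.17%).

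By role, the destruction complex without the Axins (7 genes) was lower in H3K27ac at 7 of 7 in both EPSC lists, and the nuclear effectors at 8 of 9 in D-EPSCs and 9 of 9 in L-EPSCs, where 61.6% (D-EPSCs) and 79.6% (L-EPSCs) of all windows were. The inhibitors were lower at 11 of 12 in each, the receptors and transducers at 11 of 15 and 13 of 14, the ligands at 7 of 9 and 8 of 9, and the targets at 7 of 9 and 8 of 9. In the list of tankyrases and Axin turnover the one gene left, Rnf146 (a ubiquitin ligase for modified Axin), was neither lower nor higher (log2 -0.23 and -0.34). H3K4me1 was higher than in ESCs at 6 of 25 ligands and at 4 of 21 receptors and transducers in each EPSC list, beside 8.53% of all windows in D-EPSCs and 9.27% in L-EPSCs. Groups of this size are small, and nothing particular to a role is drawn from these counts.

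Outside the 10, the widest gaps in H3K27ac were at Sfrp1, a secreted Wnt antagonist (14.7 kb in ESCs and none in either EPSC list), Ror2, a Wnt receptor kinase (82.1, 7.01 and 8.82 kb), Fzd10, a receptor (14.5, 0.939 and 0 kb), and Btrc, the β-catenin ubiquitin ligase subunit (27.9, 3.81 and 0 kb). In H3K4me1 they were at the receptor Fzd6 (0.426, 5.48 and 4.03 kb), the agonist Rspo1 (0.888, 4.66 and 3.47 kb), the target Mixl1 (0, 1.28 and 1.70 kb) and the ligand Wnt2 (0.282, 2.10 and 2.64 kb). These 4 were sparsely marked in ESCs, and both EPSC lists lay on the same side of ESCs at each of the 8 genes. The genes were picked by their ratios over the shared ESC list, which favours that outcome, so nothing is drawn from it.

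Likeness to other genes was measured as the Euclidean distance over the 6 covered-base values of a window (log2 with 500 bp added). Lef1 was the farthest from any other gene, with Il17d nearest at 1.70 (H3K27ac 0, 4.72 and 0.703 kb, H3K4me1 19.4, 24.4 and 18.1 kb in ESCs, D-EPSCs and L-EPSCs). Axin2 was next, with Gnai3 at 0.63, and T was the closest to another gene, with Amn at 0.05. The nearest genes of the others were Rara for Tnks (0.43), Pla2g4e for Cdx1 (0.37), Tmem63b for Ctnnb1 (0.28), Syvn1 for Tnks2 (0.26), Emid2 for Axin1 (0.25), Dhx32 for Tcf7 (0.20) and Lhx6 for Sp5 (0.09).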

How the data were processed

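The authors aligned paired reads to mm9 with bowtie2 (2.3.5) and called broad peaks against input with MACS2. The deposited files hold 1 list per state and mark with a chromosome, start, end and name per peak. Signal, count and p-value columns did not enter, and call thresholds, pooling of replicates and read depth are not given in the sources used here. Groups came from the sample labels.

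Windows were the spans of protein-coding genes in GENCODE M1 widened by 20 kb. Covered bases, peaks within 1 kb of start sites and motif matches were computed for all 22350 genes or all peaks with Python 3.11.15, numpy 2.4.6 and pysam, and the code was tested on simulated peaks. Regions were merged over the 3 lists of a mark. The 10 genes and the Wnt lists were chosen with earlier results of these data known. Text names all 10, and of the other Wnt genes the 3 with the largest absolute log2 ratio per mark and EPSC comparison. Fzd3, Porcn and Rnf146 were named after their values were seen. Alternatives changed the window, peak width, gaps, list length, measure, fold, minimum cover, pseudocount, start site and motif.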

Additional observations from a re-analysis of the deposited data

Results flagged for a closer look

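Lef1 was singled out because its H3K4me1 cover lay on opposite sides of the ESC list in the 2 kinds of EPSC. The log2 ratio over ESCs was 1.20 in D-EPSCs and -0.35 in L-EPSCs, from 1 list per state, and the difference was not tested. The L-EPSC side of this is small: with no widening of the gene the L-EPSC ratio was 0.04.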

How the results depend on the processing

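All comparisons rest on 1 list per state and mark, so no replicate could be left out, and no paired analysis was possible because the lists carry no replicate numbers. Of 289 recomputed summary results, 251 kept their direction and stayed within 1.5 times the value reported (motif shares within its 95% exact binomial interval), and those below did not unless described as kept. The H3K27ac calls differed between both ways of evening out list length. With equal numbers of peaks 5 genes (D-EPSCs) and 6 (L-EPSCs) were lower than ESCs, counts that were kept by this rule. Lists trimmed to equal covered bases kept 3725 ESC and 26966 L-EPSC peaks, and no ESC base was left at Axin1, Axin2, Cdx1, Ctnnb1 and Tnks2, which could therefore not be lower. In them 0 genes were lower in D-EPSCs and 0 in L-EPSCs than in ESCs, 4 and 3 were higher, and the medians were 0 and 0.13. Among single genes, the H3K27ac ratios then turned to 2.35 at Tcf7, 3.37 at Tnks2 and 3.44 at Ctnnb1 in D-EPSCs, and to 2.52 at Tcf7, 2.89 at Ctnnb1, 0.26 at Tnks and 2.62 at Tnks2 in L-EPSCs. The share of ESC-acetylated bases kept in L-EPSCs was 39.2%, and 1 gene each was lower in H3K27ac and H3K4me1 for L-EPSCs over D-EPSCs. With equal numbers of peaks the Axin2 ratios were -1.10 (D-EPSCs) and -1.14 (L-EPSCs), the L-EPSC median was -0.95, 1 gene was lower in H3K27ac for L-EPSCs over D-EPSCs, and 26.9% of ESC H3K27ac peaks in the windows held the motif. The share of all peaks of that trimmed list was not counted.

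Windows of 50 kb gave 0 genes higher in D-EPSCs than in ESCs for either mark, 1 lower for each mark for L-EPSCs over D-EPSCs, and an H3K27ac median of -0.77 there. Gene spans alone gave 3 genes lower in H3K4me1 in D-EPSCs and 1 lower in H3K27ac for L-EPSCs over D-EPSCs. The widest 50% of each list gave 2 genes lower in H3K4me1 in D-EPSCs. At 3-fold, 3 genes were lower in H3K27ac in D-EPSCs, 0 lower and 0 higher in H3K4me1 there, and 1 and 0 lower in H3K27ac and H3K4me1 for L-EPSCs over D-EPSCs. At 1.5-fold, 2 genes (D-EPSCs) and 6 (L-EPSCs) were lower than ESCs in H3K4me1, and 4 were lower in H3K27ac for L-EPSCs over D-EPSCs. Numbers of peaks in place of bases gave H3K4me1 counts of 0 higher in D-EPSCs, 1 lower in L-EPSCs and 0 lower for L-EPSCs over D-EPSCs. At the first base alone, H3K27ac lay over 1, 1 and 1 genes, beside 21.5%, 24.4% and 17.4% of all genes. H3K4me1 lay there at 3, 3 and 4, beside 11.4%, 26.2% and 31.8%. CTTTGAT alone was in 8.82% of ESC H3K4me1 peaks of the windows. For the counts of genes lower or higher in this section, the share of all windows was not computed, so they have no background. Apart from the trimming to equal bases and the fold, the causes were not tested.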
